A study of Mus musculus with 16 samples.

Results

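The genes described here are Trp53, which encodes the transcription factor p53, and 8 genes that p53 is known to activate directly: Cdkn1a, Mdm2, Bax, Bbc3, Pmaip1, Ccng1, Sesn2 and Trp53inp1. They were taken by gene name from the deposited expression table, and all 9 were found among its 27807 genes. The rule that picks them uses names and no expression values, but the genes were proposed with earlier results of these data known. Messenger RNA was sequenced from mouse embryonic stem (ES) cells and from embryoid bodies (EBs), floating aggregates of differentiating ES cells, on the way to glutamatergic neurons. The study asked what the loss of Taf4, a subunit of the general transcription factor TFIID encoded by Taf4a, does to this differentiation.

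The 16 libraries formed 8 groups of 2. Wild-type (WT) cells carried the genotype Taf4+/+ and the mutant cells were homozygous for a null allele (Taf4a-/-). Each genotype was sampled as ES cells, as EBs before all-trans retinoic acid was added (EB4), 24 h after its addition (EB5) and 96 h after it (EB8). The ES cells of both genotypes were grown on inactivated mouse embryonic fibroblasts with LIF and serum. The lines came from blastocysts of heterozygous crosses, and the design gives 2 independent lines for each genotype, without stating which library came from which line. The null allele is present in the cells from the start, so that a change at a late stage can follow from an earlier one, and the paralogue Taf4b is intact.

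p53 is kept at a low level in unstressed cells because Mdm2, a ubiquitin ligase, marks it for degradation, and p53 in turn activates the Mdm2 gene. After DNA damage or other stress p53 protein is stabilised and activates genes that stop the cell cycle (Cdkn1a), release the mitochondrial death pathway (Bax, Bbc3, Pmaip1), or limit oxidative stress and growth signalling (Sesn2). Much of this control acts on the protein, which RNA levels do not show. ES cells are known for high p53 levels, a short G1 phase and a low threshold for apoptosis, and p53 is known to take part in their exit from pluripotency.

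p53 binds DNA as a tetramer at a pair of 10-base elements, each of which has a strongly conserved core, separated by a gap of 0 to 13 bases. Exact matches to the p53 consensus decamer, which reads alike on both strands, were sought in the genome of build NCBI37 (mm9) within 3000 bases of each annotated gene start. A pair with a gap of at most 13 bases was found for 2 of the 9 genes and for 1.78% of 19554 protein-coding genes. Both pairs found are shown. That of Trp53inp1 lay at chr4:11082259-11082279, plus strand, 1319 bases before the gene start, and that of Cdkn1a at chr17:29227851-29227882, plus strand, 73 bases before it. The capitals mark the elements.

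Trp53inp1: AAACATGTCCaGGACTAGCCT
Cdkn1a: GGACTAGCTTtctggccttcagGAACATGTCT

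In the RefSeq promoters of build GRCm38.p6, a single element within the 250 bases before the start was found for 5 of the 7 genes with an entry, against 8.20% of 27025 genes. It began 201 bases before the start in Bax, 186 in Mdm2, 185 in Ccng1, 75 in Trp53, and 73 and 51 in Cdkn1a. Both Cdkn1a elements lay in the window chr17:29090729-29090978, plus strand. The window of another Cdkn1a start, chr17:29093519-29093768, held 0 elements. No match was found in the windows of Sesn2 and Bbc3. The Mdm2 window (chr10:117710759-117711008, minus strand) and the Bax window (chr7:45466899-45467148, minus strand) are given because both genes passed the test at EB8, with the element in capitals. A match describes letters in these windows and is not evidence of binding.

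Mdm2: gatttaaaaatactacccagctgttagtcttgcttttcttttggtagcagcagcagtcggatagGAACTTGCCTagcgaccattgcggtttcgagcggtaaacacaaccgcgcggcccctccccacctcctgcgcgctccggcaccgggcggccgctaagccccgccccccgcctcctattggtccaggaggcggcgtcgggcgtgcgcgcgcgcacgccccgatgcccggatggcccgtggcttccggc
Bax: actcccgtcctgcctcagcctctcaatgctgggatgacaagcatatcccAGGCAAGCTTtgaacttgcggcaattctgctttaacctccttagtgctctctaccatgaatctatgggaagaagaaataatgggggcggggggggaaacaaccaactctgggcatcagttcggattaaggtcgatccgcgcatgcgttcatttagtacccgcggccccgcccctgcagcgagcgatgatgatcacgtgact

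Values are normalised read counts: the reads of a gene, scaled by a factor for each library. The depth was 32631020 to 40711826 reads in the ES libraries and 22442118 to 27685306 in the EB libraries. Sample titles name no batch of sequencing. For changes between ES and EBs, any batch that went with this depth cannot be told apart from the stage. All 9 genes passed the filter on low values, and the fewest reads for any of them in a library were 175. Taf4a itself was not lower in the mutant libraries (1973 to 2400.0 against 1591 to 1960 normalised counts in WT), where counts per gene do not resolve exons. In Taf4a-/- replicate 1 genes of chromosome 11, which holds Trp53 and Ccng1, stood 0.17 to 0.27 log2 units above their average over the 16 libraries at all 4 stages, against -0.13 to -0.01 in the other 12 libraries. Chromosome 17, which holds Cdkn1a, stood at 0.18 and 0.13 in the Taf4a-/- ES libraries, against 0.0039 and -0.079 in Taf4a-/- EB8. Larger shifts lay on chromosomes that hold none of the 9 genes. The X chromosome stood at 0.35 to 0.55 in Taf4a-/- replicate 2 at all 4 stages. In the 3 EB libraries of WT replicate 1 chromosome 8 stood at 0.40 to 0.43, against -0.12 in WT ES replicate 1, and the X chromosome at 0.44 in WT ES replicate 2, against -0.23 to -0.14 in WT replicate 2 at the EB stages. Libraries of one replicate number in WT were therefore not alike before and after differentiation began, and changes from ES to EBs in WT are given below with libraries left out in turn where that alters them.

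The stages were checked against markers. All 5 ES cell markers (Pou5f1, Nanog, Zfp42, Esrrb, Dppa5a) were higher in both Taf4a-/- libraries than in both WT libraries at EB8, with sums of 23387 to 26182 against 851 to 1292 normalised counts. At ES their sums overlapped (88343 to 97091 against 58657 to 104029), though 3 of the 5 were above WT in both libraries. Their sums were higher at EB4 (54741 to 80498 against 17278 to 35553) and at EB5 (33283 to 55482 against 7361 to 10112). At these stages 3 and 4 of the 5 were above WT in both libraries. The 4 neural precursor markers in the table (Pax6, Nes, Msi1, Pou3f2) were all lower at EB8, with sums of 4797 to 4872 against 25114 to 27402. The label of neural precursor cells for this stage was thus poorly met in Taf4a-/-. The 3 neuron markers (Tubb3, Dcx, Map2) were lower at EB8 as well, at 624 to 964 against 13600.1 to 17903. Before EB8 their sums were higher in Taf4a-/-. These were 4266 to 4514 against 2562 to 2646 at ES, 1815 to 2200 against 991 to 1304 at EB4, and 1464 to 1538 against 725 to 1005 at EB5. Only Tubb3 was above WT in both libraries at these stages, and Map2 was below at EB4 and EB5. The 10 fibroblast markers, which feeder cells carry (Lum was at 0 in at least 1 library of each stage), summed to 1455 to 2943 in WT ES and 373 to 788 in Taf4a-/- ES, to 1472 to 1645 against 603 to 748 at EB4, and to 2559.7 to 3239.8 against 1747 to 1776 at EB5. At EB8 they summed to 3610.3 to 4334 in WT and 2164 to 5174 in Taf4a-/-. In bulk RNA fewer cells of a type and less RNA per cell cannot be told apart, and the part of these shifts in the results below was not tested.

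Per kilobase of exon, Bax was the most abundant of the 9 genes (mean over the 16 libraries 3347 normalised counts per kb), followed by Ccng1 (2922), Trp53 (1992), Trp53inp1 (1795), Pmaip1 (1507), Cdkn1a (1118), Mdm2 (1084), Sesn2 (1019.7) and Bbc3 (502). All were expressed above most genes, from 77.3% of 16094 genes below Bbc3 to 97.6% below Bax. They differed in how far they moved. The highest library stood 43.5-fold above the lowest for Pmaip1, 5.24-fold for Bbc3, 4.46-fold for Trp53inp1, and 1.92-fold for Ccng1, the steadiest.

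**Figure D1:**
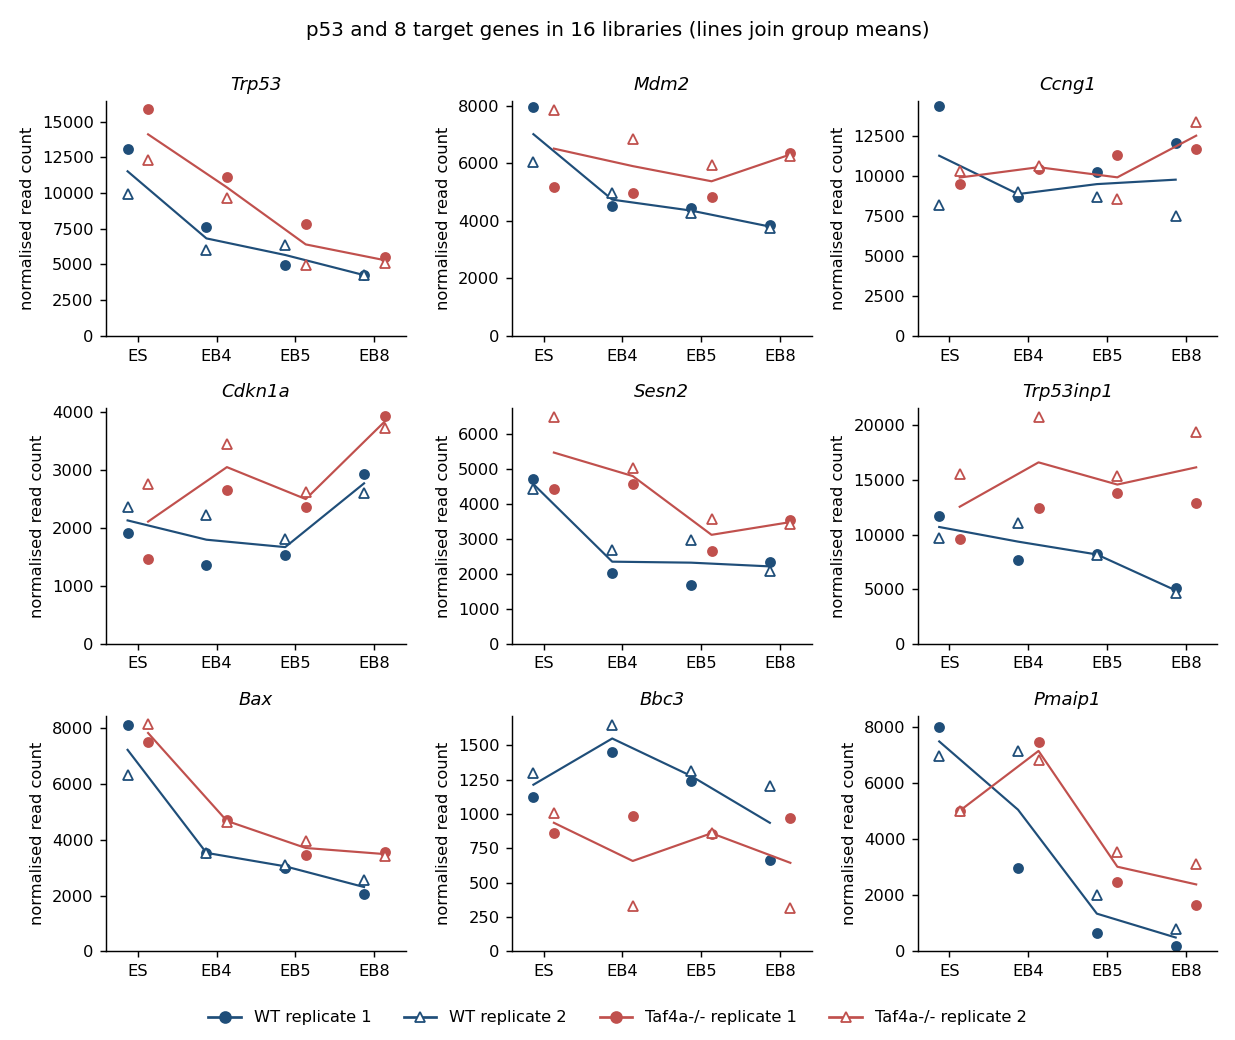
Normalised read counts (vertical axes, from 0) of the 9 genes at ES, EB4, EB5 and EB8. Filled circles are replicate 1, open triangles replicate 2, blue WT and red Taf4a-/-, and lines join the means of 2 libraries. Trp53 fell in both genotypes, while at EB8 Trp53inp1 stood at 4659 to 5103 in WT against 12901 to 19414 in Taf4a-/-, and Mdm2 at 3742 to 3855 against 6255 to 6351.

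The source of the pathway, Trp53 (ENSMUSG00000059552, chr11:69393861-69405375, plus strand), was highest in ES cells and fell to about the same share of its ES level in both genotypes. In WT there were 13090.0 and 9948 normalised counts at ES, 7629 and 6023 at EB4, 4949 and 6381 at EB5, and 4273 and 4243 at EB8. In Taf4a-/- there were 15887 and 12322 at ES, 11108 and 9681 at EB4, 7864 and 4946 at EB5, and 5523 and 5085 at EB8. The genotypes overlapped at ES and EB5, and both Taf4a-/- libraries were above both WT libraries at EB4 and EB8. From ES to EB8 the log2 change was -1.42 in WT (standard error (SE) 0.23, limma adjusted p 0.000395) and -1.40 in Taf4a-/- (SE 0.23, limma adjusted p 0.000755). The EB8 mean was 37.0% of the ES mean in WT and 37.6% in Taf4a-/-, and the difference between the log2 changes was 0.02 with an SE of 0.33. The log2 difference between genotypes was 0.61 at EB4 (SE 0.23, limma adjusted p 0.136) and 0.32 at EB8 (SE 0.23, limma adjusted p 0.356), and neither passed. With the level of chromosome 11 removed from each library the difference was 0.44 at EB4 and 0.16 at EB8.

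Mdm2 (ENSMUSG00000020184, chr10:117125944-117147814, minus strand), the ligase that restrains p53 and is its target in turn, fell over differentiation in WT but not detectably in Taf4a-/-. The WT libraries held 7965 and 6051 normalised counts at ES, 4507 and 4963 at EB4, 4438 and 4272 at EB5, and 3855 and 3742 at EB8. The mutant libraries held 5175 and 7837 at ES, 4960.4 and 6838 at EB4, 4817 and 5927 at EB5, and 6351 and 6255 at EB8. WT and mutant overlapped at ES and EB4 and were apart at EB5 and EB8. At EB8 Mdm2 was 1.66-fold higher in Taf4a-/- (log2 0.73, SE 0.21, limma adjusted p 0.0277), a call lost when any 1 of the 4 EB8 libraries was left out (adjusted p 0.0900 to 0.115). From ES to EB8 the log2 change was -0.87 in WT (SE 0.21, limma adjusted p 0.00554) and -0.01 in Taf4a-/- (SE 0.21, limma adjusted p 0.965), a value whose sign turned under upper-quartile and quantile scaling (0.11 and 0.41). The difference between these changes, 0.86 (SE 0.30), did not pass (limma adjusted p 0.104), though it did under quantile scaling (1.19, adjusted p 0.0230). Without WT ES replicate 1 the fall in WT was -0.67 and missed the threshold (adjusted p 0.0501).

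The cell cycle genes gave 1 call in all. Cdkn1a (ENSMUSG00000023067, chr17:29227924-29237667, plus strand) encodes p21, an inhibitor of cyclin-dependent kinases. In WT the values were 1908 and 2357 normalised counts at ES, 1366 and 2231 at EB4, 1526 and 1814 at EB5, and 2941 and 2606 at EB8. In the mutant the values were 1463 and 2760.2 at ES, 2657 and 3452 at EB4, 2372 and 2631 at EB5, and 3945 and 3736 at EB8. From EB4 on, both mutant libraries stood above both WT libraries, but no stage passed the test, with log2 differences of 0.79 at EB4 (SE 0.29, limma adjusted p 0.121) and 0.47 at EB8 (SE 0.29, limma adjusted p 0.262). Cdkn1a rose from ES to EB8 in Taf4a-/- (log2 0.93, SE 0.29, limma adjusted p 0.0227), while in WT the change was 0.38 (SE 0.29, limma adjusted p 0.289). The rise missed the threshold without Taf4a-/- ES replicate 1 (0.48, adjusted p 0.249), without either Taf4a-/- EB8 library (adjusted p 0.0712 and 0.0921), and in a fit of the compared groups alone (adjusted p 0.0586).

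Ccng1 (ENSMUSG00000020326, chr11:40562054-40568813, minus strand) encodes cyclin G1, which recruits a phosphatase to Mdm2. Its WT libraries held 14341 and 8143 normalised counts at ES, 8690.0 and 9009 at EB4, 10254 and 8688 at EB5, and 12014 and 7483 at EB8. Its Taf4a-/- libraries held 9490.2 and 10274 at ES, 10437 and 10614 at EB4, 11256 and 8531 at EB5, and 11634 and 13348 at EB8. The 2 WT libraries differed from each other at ES and EB8 by more than the genotypes did. No comparison of Ccng1 passed the limma test on the values as deposited, but under quantile scaling its rise from ES to EB8 in Taf4a-/- did (0.82, adjusted p 0.0198, against 0.34 and 0.335). At EB8 the log2 difference was 0.39 (SE 0.26, limma adjusted p 0.305), or 0.24 with the chromosome 11 level removed. The ES to EB8 change in WT, -0.19, turned positive under quantile scaling and without WT ES replicate 1 or WT EB8 replicate 2.

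Among the genes of the mitochondrial death pathway, Bax had a lower mean at each later stage in both genotypes. Bax (ENSMUSG00000003873, chr7:52717065-52722268, minus strand) encodes the protein that permeabilises the outer mitochondrial membrane. The WT values were 8122 and 6345 normalised counts at ES, 3530.1 and 3539.7 at EB4, 2999.9 and 3102 at EB5, and 2049.8 and 2566 at EB8. The Taf4a-/- values were 7528 and 8148 at ES, 4727 and 4636 at EB4, 3474 and 3946 at EB5, and 3576 and 3408 at EB8. The genotypes overlapped at ES, and from EB4 on the mutant libraries were above the WT libraries at each stage. Bax fell from ES to EB8 in WT (log2 -1.65, SE 0.15, limma adjusted p 8.61e-06) and in Taf4a-/- (log2 -1.17, SE 0.15, limma adjusted p 0.000205), and these calls held under each alternative run. The EB8 mean was 31.9% of the ES mean in WT and 44.5% in Taf4a-/-, and the difference of the log2 changes, 0.48 (SE 0.22), did not pass (limma adjusted p 0.193) except under quantile scaling (0.76, adjusted p 0.0356).

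Much of the fall of Bax had taken place before retinoic acid was added. From ES to EB4 the log2 change was -1.02 in WT (SE 0.15, limma adjusted p 0.00219) and -0.74 in Taf4a-/- (SE 0.15, limma adjusted p 0.0259). In the mutant this call was lost without any 1 of the 4 libraries, and in both genotypes in a fit of the compared groups alone. That fit called 0 of 16124 genes in WT and 23 in Taf4a-/-. At EB8 Bax was 1.52-fold higher in Taf4a-/- than in WT (log2 0.61, SE 0.15, limma adjusted p 0.0141). That call was lost without WT EB8 replicate 1 (0.44, adjusted p 0.120), without Taf4a-/- EB8 replicate 1 (0.57, adjusted p 0.0784), and in a fit of EB8 alone (adjusted p 0.0602).

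Pmaip1 (ENSMUSG00000024521, chr18:66618258-66625204, plus strand) encodes Noxa, a BH3-only protein that neutralises Mcl1, and had the largest changes of the 9 genes. In WT there were 7999 and 6958 normalised counts at ES, 2953 and 7138 at EB4, 662 and 2023 at EB5, and 184 and 799 at EB8. In Taf4a-/- there were 5003 and 5011 at ES, 7449.9 and 6832 at EB4, 2482 and 3546 at EB5, and 1642 and 3126 at EB8. The mutant libraries were below WT at ES, overlapped with it at EB4 and were above it at EB5 and EB8, and WT replicate 1 was well below WT replicate 2 in all EB stages. From ES to EB8 Pmaip1 was 19.4-fold lower in WT (log2 -4.28, SE 0.64, limma adjusted p 0.000231), with 6.57% of the ES mean left. Without WT EB8 replicate 1 the log2 change was -3.22 and without WT EB8 replicate 2 it was -5.34, so that the fold is loosely set while the call held.

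In Taf4a-/- 47.6% of the ES mean of Pmaip1 was left at EB8, and the log2 change of -1.14 (SE 0.64) did not pass (limma adjusted p 0.182) although both EB8 libraries were below both ES libraries. The difference of the changes between genotypes was 3.13 (SE 0.91, limma adjusted p 0.0569). It passed under 7 of the alternatives, among them DESeq2 (adjusted p 0.0107). At EB8 Pmaip1 was 5.89-fold higher in Taf4a-/- (log2 2.56, SE 0.64, limma adjusted p 0.0136). Without WT EB8 replicate 1 the log2 difference was 1.50 (adjusted p 0.128), without Taf4a-/- EB8 replicate 2 it was 2.10 (adjusted p 0.0993), and in a fit of EB8 alone the adjusted p was 0.0504.

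Bbc3 (ENSMUSG00000002083, chr7:16894965-16903554, plus strand) encodes Puma, another BH3-only protein, and was the only one of the 9 genes with lower mean values in Taf4a-/- at every stage. The WT libraries held 1124 and 1301 normalised counts at ES, 1451 and 1647 at EB4, 1237 and 1316 at EB5, and 667 and 1204 at EB8. The mutant libraries held 862 and 1009 at ES, 988 and 327 at EB4, 856 and 863 at EB5, and 974 and 314 at EB8. The mutant libraries were below WT at ES, EB4 and EB5 and overlapped with WT at EB8, and the lowest values, at EB4 and EB8, both came from Taf4a-/- replicate 2. No stage passed the test, with log2 differences of -1.44 at EB4 (SE 0.52, limma adjusted p 0.117) and -0.69 at EB8 (SE 0.52, limma adjusted p 0.362). The EB4 difference was -2.24 and passed (adjusted p 0.0373) without Taf4a-/- EB4 replicate 1, and was -0.64 without Taf4a-/- EB4 replicate 2. The EB8 difference was 0.12 without Taf4a-/- EB8 replicate 2. Between ES and EB8 the log2 change was -0.43 in WT and -0.75 in Taf4a-/- (limma adjusted p 0.514 and 0.273), and in Taf4a-/- it passed without EB8 replicate 1 (-1.57, adjusted p 0.0401).

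Sesn2 (ENSMUSG00000028893, chr4:132047947-132066416, minus strand) encodes Sestrin 2, a stress protein that restrains mTORC1 signalling. In WT the values were 4716 and 4431 normalised counts at ES, 2024 and 2676 at EB4, 1677 and 2967 at EB5, and 2334 and 2095 at EB8. In the mutant the values were 4448 and 6509 at ES, 4568 and 5042 at EB4, 2668 and 3572 at EB5, and 3534 and 3435 at EB8. WT had dropped by EB4, while the mutant values at EB4 were still in the range of the ES cells. From ES to EB4 the log2 change in WT was -0.97 (SE 0.26, limma adjusted p 0.0255). The call was lost without either WT ES library (-0.93 and -1.02) and without WT EB4 replicate 1 (-0.77). It was also lost in a fit of the compared groups alone (limma adjusted p 0.110), which called 0 of 16124 genes.

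At EB4 Sesn2 was 2.06-fold higher in Taf4a-/- (log2 1.04, SE 0.26, limma adjusted p 0.0383), and this was the one member called there. The call was lost without any 1 of the 4 EB4 libraries (adjusted p 0.0675 to 0.262), without the filter on low values (0.0627) and in a fit of EB4 alone (0.144). The fit of EB4 alone called 0 of 16124 genes. At EB8 the log2 difference was 0.66 (SE 0.26, limma adjusted p 0.0905), with the mutant libraries above the WT libraries. It passed under upper-quartile scaling (0.0420), quantile scaling (0.0322) and a fit of EB8 alone (0.0342). From ES to EB8 Sesn2 fell in WT (log2 -1.05, SE 0.26, limma adjusted p 0.00601), and in Taf4a-/- the change was -0.63 (SE 0.26, limma adjusted p 0.0770).

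Trp53inp1 (ENSMUSG00000028211, chr4:11083578-11101526, plus strand) encodes a stress-induced protein that promotes p53 phosphorylation and autophagy, and gave the firmest difference between the genotypes. The WT values were 11653 and 9728 normalised counts at ES, 7683 and 11016 at EB4, 8222 and 8124 at EB5, and 5103 and 4659 at EB8. The Taf4a-/- values were 9549 and 15546 at ES, 12456 and 20772 at EB4, 13771 and 15388 at EB5, and 12901 and 19414 at EB8. The genotypes overlapped at ES and were apart at every later stage. At EB8 Trp53inp1 was 3.25-fold higher in Taf4a-/- (log2 1.70, SE 0.29, limma adjusted p 0.00152), and this call held under all 16 alternatives. At EB4 and EB5 the log2 differences were 0.81 and 0.83 (SE 0.29 each), with limma adjusted p of 0.117 and 0.123.

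From ES to EB8 Trp53inp1 fell in WT (log2 -1.13, SE 0.29, limma adjusted p 0.00690) and changed by 0.38 in Taf4a-/- (SE 0.29, limma adjusted p 0.326), or by 0.91 under quantile scaling, where it passed (adjusted p 0.0264). The EB8 mean was 45.7% of the ES mean in WT and 128.8% in Taf4a-/-. On the values as deposited the difference between the changes passed for Trp53inp1 alone among the 9 genes. Of all genes tested 7.29% passed, 3.85% with a greater change in Taf4a-/-. Under quantile scaling 4 of the 9 passed, and 1461 of 16124 genes, 799 of them with a greater change in Taf4a-/-. For Trp53inp1 the call as deposited was at log2 1.50 (SE 0.41, limma adjusted p 0.0445). It was lost without WT ES replicate 1 (adjusted p 0.0739), WT ES replicate 2 (0.0765), WT EB8 replicate 1 (0.0803), WT EB8 replicate 2 (0.129), Taf4a-/- ES replicate 1 (0.165) or Taf4a-/- EB8 replicate 2 (0.135), without the filter on low values (0.0714), and in a fit of the 4 compared groups alone (0.0627).

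**Figure D2:**
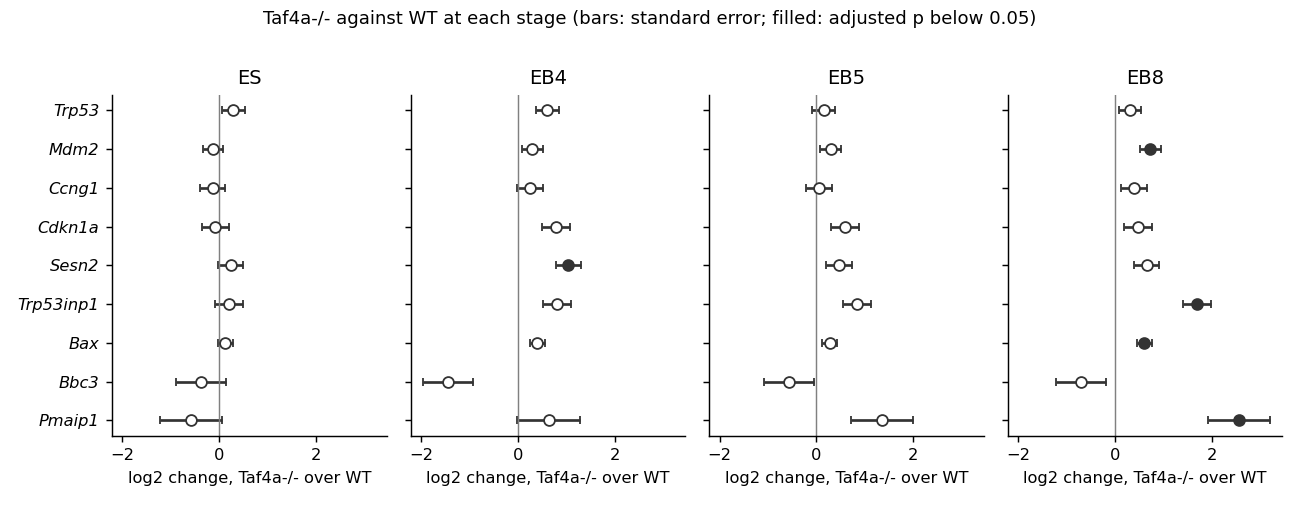
Log2 change of Taf4a-/- over WT (horizontal axes) for the 9 genes at ES, EB4, EB5 and EB8, from limma on 16 libraries. Bars are standard errors and filled points have an adjusted p below 0.05. No gene was past the threshold at ES or EB5, Sesn2 was at EB4 (1.04), and Trp53inp1, Pmaip1, Mdm2 and Bax were at EB8 (1.70, 2.56, 0.73 and 0.61).

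Counted over the 9 genes, calls between the genotypes were 0 at ES, 1 at EB4, 0 at EB5 and 4 at EB8. At ES none of the 9 passed the limma test, as none of all genes did (0% of 16124), and none had an unadjusted p below 0.05 (11.4% of all genes did). DESeq2 and edgeR also called none of the 9 at ES, where DESeq2 called 469 of 16124 genes and edgeR 0. Only Bbc3 and Pmaip1 had groups that did not overlap at ES, both lower in Taf4a-/-, an order found in 20.7% of all genes. At EB4 Sesn2 alone passed (6.12% of all genes did, 2.75% as higher), with 6 members above WT in both libraries (25.3% of all genes) and Bbc3 below, and with 6 at an unadjusted p below 0.05 (22.7% of all genes). At EB5 none passed (4.34% of all genes did) and Trp53inp1 alone had an unadjusted p below 0.05, where 20.7% of all genes did, with 5 members above WT in both libraries (26.7% of all genes). None of the 9 passed at EB5 in DESeq2 or edgeR either, which called 1719 and 603 of 16124 genes there. At EB8 4 of 9 passed as higher in Taf4a-/- and 0 as lower, against 10.4% and 12.5% of all genes, and 7 were above WT in both libraries (30.4% of all genes). There 5 of the 9 had an unadjusted p below 0.05, against 36.0% of all genes. The median log2 difference of the 9 genes was -0.08 at ES, 0.61 at EB4, 0.30 at EB5 and 0.61 at EB8, where that of all genes tested ran from -0.029 to -0.0033. The 4 called at EB8 fell to 1 without WT EB8 replicate 1 and to 2 without either Taf4a-/- EB8 library. The sums of the ES cell markers were higher in Taf4a-/- than in WT at EB4, EB5 and EB8. In Taf4a-/- these sums fell from ES (88343 to 97091) to EB8 (23387 to 26182). Over the same span 2 of the 9 genes fell past the threshold in Taf4a-/- and 6 in WT. The part of these markers in the differences between the genotypes was not tested.

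Over differentiation, 6 of the 9 genes fell from ES to EB8 in WT (Trp53, Mdm2, Bax, Pmaip1, Sesn2 and Trp53inp1), against 22.8% of all genes tested. In Taf4a-/- 2 fell (Trp53 and Bax; 18.0% of all genes) and Cdkn1a rose (19.7% of all genes). From ES to EB4 Bax, Sesn2 and Trp53 fell in WT (7.57% of all genes), with Trp53 at log2 -0.75 (SE 0.23, limma adjusted p 0.0442), and Bax alone fell in Taf4a-/- (0.992% of all genes). The call on Trp53 was lost without WT ES replicate 1, without either WT EB4 library and without the filter (limma adjusted p 0.0725). It was also lost in a fit of the compared groups alone (limma adjusted p 0.178), which called 0 of 16124 genes. From EB4 to EB5 none of the 9 passed in limma in either genotype (3.73% of all genes did in WT and 2.51% in Taf4a-/-), with 1 member at an unadjusted p below 0.05 in WT, Pmaip1 (log2 -1.99, SE 0.64, limma adjusted p 0.134), and 3 in Taf4a-/- (14.8% and 16.3% of all genes). DESeq2 called 1 of the 9 in WT from EB4 to EB5, and 1094 of 16124 genes. From EB5 to EB8 none passed either (10.4% and 0.738% of all genes), with 4 members at an unadjusted p below 0.05 in WT and 0 in Taf4a-/- (24.7% and 12.8% of all genes). These comparisons share libraries, so that their counts are not independent of each other.

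**Figure D3:**
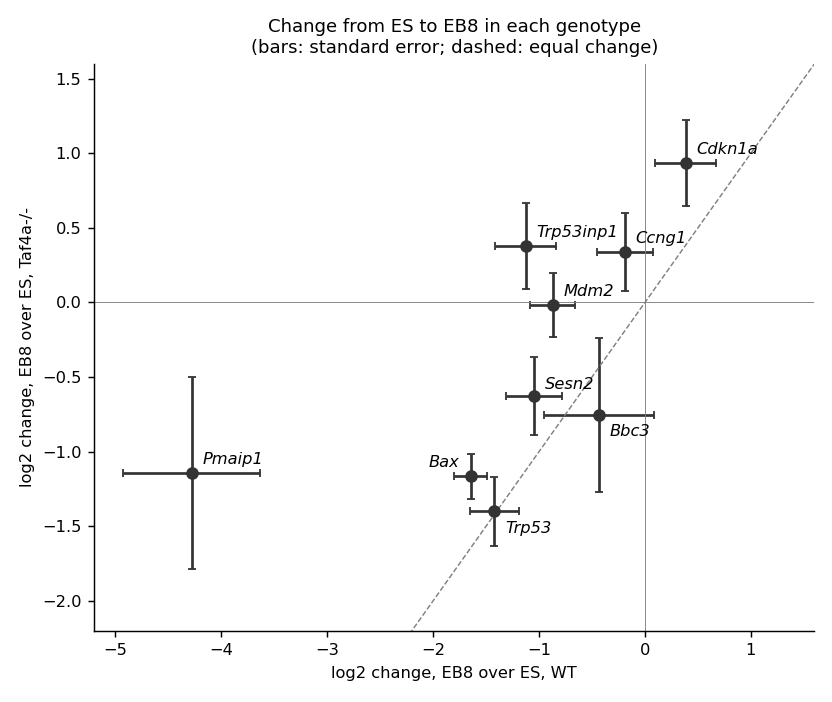
Log2 change from ES to EB8 in WT (horizontal axis) and in Taf4a-/- (vertical axis) for the 9 genes, from limma. Bars are standard errors and the dashed line marks equal change in both genotypes. Trp53 lies on the line (-1.42 and -1.40), Pmaip1, Trp53inp1 and Mdm2 lie above it (-4.28, -1.13 and -0.87 in WT against -1.14, 0.38 and -0.01), and of these only the difference of Trp53inp1 passed in this fit.

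Other genes of the pathway were looked up in 6 lists. Of 57 genes in the table, all tested, 6 were higher and 6 lower in Taf4a-/- at EB8 past the threshold, which is 10.5% each way against 10.4% and 12.5% of all genes. The lists as a whole were thus called about as often as other genes, and the genes named below describe single members of the pathway. The median log2 difference of the 57 genes was 0.25 against -0.03 for all genes. At ES no gene of the lists passed, at EB4 1 was higher and 1 lower (1.75% each, against 2.75% and 3.37% of all genes), and at EB5 1 was higher (1.75% against 2.17%). For the difference of the ES to EB8 change, 4 of the 57 genes passed with a greater value in Taf4a-/- and 0 with a lower one. These were 7.02% and 0.00% of the lists, against 3.85% and 3.44% of all genes.

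Of 13 p53 regulators and family members, which include the kinases Atm, Atr, Chek1 and Chek2, 0 were higher and 2 lower at EB8. Trp53bp1, a DNA damage mediator that binds p53, stood at 5732 and 6362 in the WT libraries against 3559.8 and 3599 in the Taf4a-/- libraries, in normalised counts (log2 -0.75, limma adjusted p 0.0195). Cop1, which like Mdm2 is a ubiquitin ligase for p53, held 2405 and 2166 against 1262 and 1659.6 (log2 -0.66, limma adjusted p 0.0191), so that the 2 ligases went opposite ways. Both genes were lower than WT in each mutant library.

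Of 8 other cell cycle targets 2 were higher and 2 lower. Sfn, which encodes the 14-3-3 sigma protein of the G2 checkpoint, held 86.1 and 177 normalised counts in WT EB8 and 1565 and 799 in Taf4a-/- EB8, 8.99-fold higher (log2 3.17, SE 0.48, limma adjusted p 0.000736). Ptprv, a phosphatase gene, was near the floor of detection in WT at 3.15 and 0 against 11.6 and 28.8 normalised counts, so that no fold is given (limma adjusted p 0.0425, lost in edgeR at 0.0730). Lower in Taf4a-/- were Rprm, a G2 arrest gene, at 69.6 and 88.4 against 252 and 339 in WT (log2 -1.88, limma adjusted p 0.0121), and Plk3, a stress-responsive kinase, at 1382 and 1045 against 3387 and 3873 (log2 -1.59, limma adjusted p 0.00757). Cdkn1b, which encodes p27 and is with Cdkn1c the other Cip/Kip inhibitor, was also lower, at 1603 and 1153 against 2094 and 3246 (log2 -0.94, limma adjusted p 0.0280), where its relative Cdkn1a, which did not pass, stood at 0.47.

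Of 12 other apoptosis targets 2 were higher and 0 lower. Tnfrsf10b, the TRAIL death receptor, held 1098 and 767 normalised counts in WT EB8 and 1812 and 1979 in Taf4a-/- EB8 (log2 1.04, limma adjusted p 0.00793). Apaf1, the scaffold of the apoptosome, held 2571 and 2704 against 3819 and 5429 (log2 0.79, limma adjusted p 0.0406). Among 12 other Bcl2 family genes Mcl1, the anti-apoptotic partner of Noxa, was 2.01-fold higher, at 15883 and 14906 against 8163 and 7160.5 (log2 1.01, SE 0.21, limma adjusted p 0.00553), while Bok, a relative of Bax, was lower at 115 and 84.2 against 240.5 and 301 (log2 -1.44, limma adjusted p 0.0263). Higher levels were thus measured both for pro-apoptotic genes (Bax, Pmaip1, Tnfrsf10b, Apaf1) and for an anti-apoptotic one. Of 10 repair and metabolism targets 1 passed, Gls2, a mitochondrial glutaminase, at 984 and 445 against 150.2 and 269 (log2 1.71, limma adjusted p 0.0125). Of these 12 genes, Sfn and Mcl1 alone kept their calls whichever single EB8 library was left out.

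**Figure D4:**
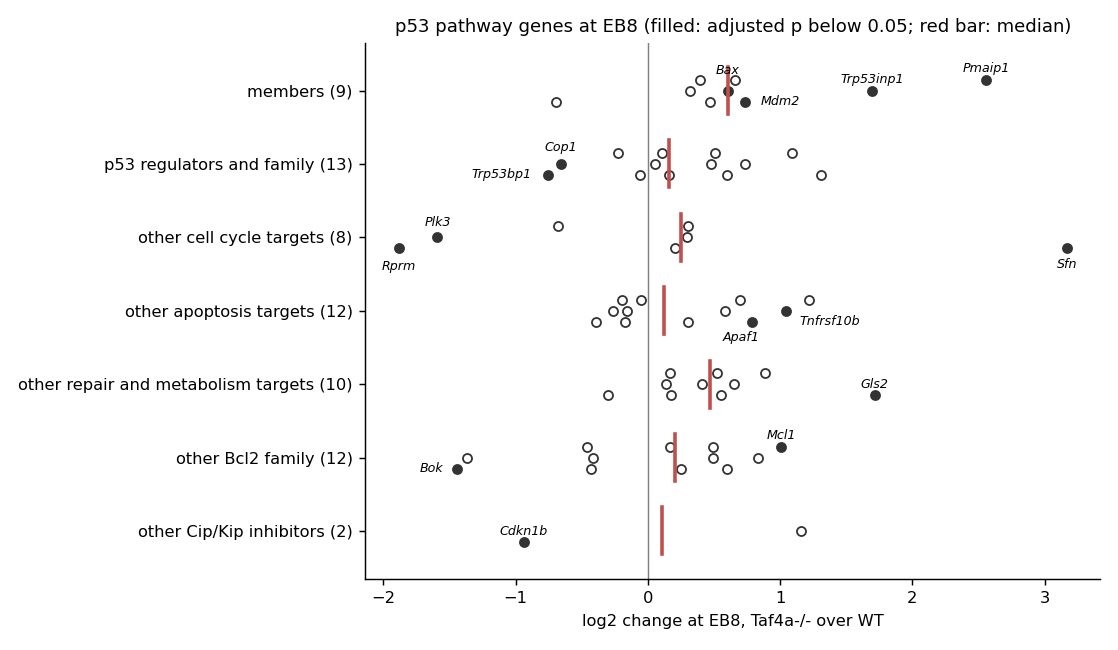
Log2 change of Taf4a-/- over WT at EB8 (horizontal axis) for the 9 genes and for 6 lists of other p53 pathway genes, with the number of genes tested in each. Filled, named points have an adjusted p below 0.05, red bars are medians, height within a list has no meaning, and Ptprv is not drawn because it was near the floor in WT. Of the 57 other genes 6 were higher and 6 lower, with Sfn the farthest to the right at 3.17 and Rprm the farthest to the left at -1.88.

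The genes whose pattern over the 8 group means was most like that of Trp53 were Dhodh, Tsr1 and Banf1, with root-mean-square differences of 0.065, 0.086 and 0.089 log2 units after centring, against a median of 0.74 over 16115 genes. For Cdkn1a they were Vill, Cdkl3 and Lyrm5 (0.098, 0.14 and 0.15, median 0.62). For Mdm2 they were Necap1, Ctsd and Mtmr12 (0.034, 0.077 and 0.080, median 0.54). None of these 9 genes is in the lists above.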

How the data were processed

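Poly-A RNA of 16 libraries was sequenced as single-end 54 base reads from a kit that does not mark strand. The deposited values are a signal, the authors' read count per gene divided by a DESeq2 size factor. The submitters' processing notes name CASAVA 1.7 and 1.8, TopHat2 2.0.10, HTSeq 0.5.4p3, DESeq2 1.0.19 and build mm9, and the annotation release is not given in the sources used here. In each library all values were whole multiples (within 0.0001 reads) of a step of 0.715 to 1.28, so reads could be recovered for depth and for edgeR and DESeq2, run as alternatives.

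The main test was limma 3.58.1 (R 4.3.3) on log2(value + 1), with a mean per group over all 16 libraries and eBayes with trend (residual df 8, prior df 4.27), on 16124 genes with a mean of at least 10. p-values were adjusted by Benjamini-Hochberg over these genes, with a threshold of 0.05. Folds are on that scale, which understates the change of low genes. The 13 contrasts were the genotypes at each stage, stages within each genotype, and the difference of the ES to EB8 change. The p-values measure the spread between libraries, which come from 2 lines a genotype sampled at 4 stages. Scripts were tested on simulated data. Positions and exon lengths are from GENCODE M1 on NCBI37, where 27603 identifiers were found and 204 were not. Only Gm12981 overlaps a member gene (Sesn2), on the same strand and sharing 0 exon bases. A gene at 3 reads or fewer was taken as at the floor, which covers counting error only.

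The members, the lists of markers and pathway genes, and the tests were chosen with earlier results of these data known. The text names all members, up to 4 genes per pathway list with the largest change among those past the threshold at EB8 whose groups did not overlap, and the 3 genes most like Trp53, Cdkn1a and Mdm2. Sox1 and Bcl2a1a were not analysed here. Markers of mesoderm and endoderm (6 genes) summed to 1547 to 1788 in WT EB8 and 662 to 689 in Taf4a-/- EB8. Of the 6, 4 were below WT in both Taf4a-/- libraries and 1 above. The latter was T, at 8.44 and 38.3 normalised counts against 6.30 and 3.18 in WT, near the floor. As alternatives the pseudocount was 0.1 or 5, the filter was absent or at a mean of 50, and there were upper-quartile and quantile scaling, a fit of only the compared groups, a replicate block, a random effect of genotype and replicate number, the chromosome 11 level removed, and each library left out.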

Additional observations from a re-analysis of the deposited data

Results flagged for a closer look

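Trp53inp1 is listed because its change from ES to EB8 differed between the genotypes by a test of the difference itself. The log2 difference, Taf4a-/- minus WT, was 1.50 (limma, SE 0.41, adjusted p 0.0445), from a mean of 10690.3 normalised counts at ES to 4881 at EB8 in WT and from 12547 to 16158 in Taf4a-/-. The call was lost without the filter on low values and in a fit of the compared groups alone (limma adjusted p 0.0714 and 0.0627). With a library left out the log2 difference ran from 1.152 to 1.855. The call was lost without either WT ES library, either WT EB8 library, Taf4a-/- ES replicate 1 or Taf4a-/- EB8 replicate 2.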

How the results depend on the processing

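Over 58 results on single genes and 950 recomputed values, 837 kept their direction and their side of the threshold, 79 lost the threshold, 23 gained it and 11 turned in sign. At EB4 the count of members called between genotypes, 1, became 0 with no filter and in a fit of only the compared groups, and 0 to 1 on leaving out a library. The 1 that then remained was Bbc3 as lower, without Taf4a-/- EB4 replicate 1, while Sesn2 was lost in each case. At EB8 the 4 calls became 1 to 3 on leaving out a library. From ES to EB4 the 3 calls in WT became 0 with only the compared groups and 1 to 2 on leaving out a library, and the 1 call in Taf4a-/- became 0 in both cases. The fit of only the compared groups called 0 of 16124 genes between the genotypes at EB4 and 0 from ES to EB4 in WT. It called 23 from ES to EB4 in Taf4a-/-. The losses of members in these fits were thus shared by all or nearly all genes. From EB4 to EB5 in WT the 0 calls became 1 in DESeq2. From EB5 to EB8 in WT they became 1 under quantile scaling and with only the compared groups, and 0 to 1 on leaving out a library. From ES to EB8 in Taf4a-/- the 3 calls became 5 under quantile scaling. For the difference of that change the 1 call became 0 with no filter and with only the compared groups, 2 under upper-quartile scaling, the random effect and DESeq2, 4 under quantile scaling, and 0 to 1 on leaving out a library.

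The values that turned in sign, none of them past the threshold, were Bbc3 at EB8 without Taf4a-/- EB8 replicate 2 (0.12) and its ES to EB8 change in Taf4a-/- without that library (0.062), the ES to EB8 change of Ccng1 in WT under quantile scaling (0.010), without WT ES replicate 1 (0.22) and without WT EB8 replicate 2 (0.15), that of Mdm2 in Taf4a-/- under upper-quartile (0.11) and quantile scaling (0.41) and without Taf4a-/- ES replicate 2 (0.28), and the difference of the Trp53 changes without WT ES replicate 1 (-0.18), Taf4a-/- ES replicate 2 (-0.16) and Taf4a-/- EB8 replicate 1 (-0.038). Upper-quartile scaling moved the median of all genes at EB8 to 0.11. On leaving out a library these ran from -1.51 to 0.12 (Bbc3 at EB8), -1.57 to 0.062 (Bbc3, ES to EB8 in Taf4a-/-), -0.60 to 0.22 (Ccng1) and -0.31 to 0.28 (Mdm2). The causes were not tested. A fit that leaves out a library leaves a lone sample, assumed to vary like the other groups.

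The replicate numbers are not stated to mark a line or a day. Same-numbered libraries deviated together between genotypes at ES (correlation across genes 0.33) and not at EB4, EB5 or EB8 (-0.058, -0.21 and -0.13). Within a genotype the correlation was 0.61 from EB4 to EB5 and 0.57 from EB5 to EB8 in WT, -0.048 and -0.076 from ES to EB8 and to EB4 in WT, and 0.23 to 0.42 between stages in Taf4a-/-, so that a number went with shared deviations across the EB stages and in Taf4a-/-. With the replicate block the calls from EB4 to EB5 in WT became 1, those for the difference of the ES to EB8 change became 2, Sesn2 passed at EB8 (adjusted p 0.0497) and for its ES to EB8 change in Taf4a-/- (0.0417). With the Taf4a-/- numbers exchanged, an alternative chosen after seeing the data, the calls were 4 at EB8 and 2 for the difference of the changes.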
